A study of Arabidopsis thaliana with 30 samples.

Results

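In some genes of detached Arabidopsis thaliana leaves the answer to a hormone-like stimulus grew between 6 and 10 h. In others it shrank, and some crossed the level of mock leaves. These genes are described here, not the average size of the answer. They were sought in replicates 1 and 2 of all 10 groups, 20 of the 30 libraries, by the hourly slope of log2 expression in stimulus leaves minus the same slope in mock leaves. Of 21066 genes tested, 1624 (7.71%) had different slopes, 684 (3.25%) with the higher slope in stimulus leaves and 940 (4.46%) with the lower one, by the edgeR quasi-likelihood test at an adjusted p under 0.05. At an unadjusted p under 0.05 there were 4494, of which 1904 had the higher slope and 2590 the lower one. DESeq2, an alternative method, called 683 higher and 830 lower. Replicate 3 was kept apart to see whether the directions held in libraries that took no part in the search.

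Leaves 1 and 2 were detached whole from 10 d old Columbia-0 seedlings grown on soil under continuous light, pooled, and incubated in buffer with 5% glucose and 0.2% DMSO. Stimulus leaves also received 20 µM bikinin, 2.5 µg/mL 2,4-D and 0.5 µg/mL kinetin, and mock leaves did not. Each treatment was sampled at 6, 7, 8, 9 and 10 h. The sample titles call the replicates biological ("biorep"), but no label ties them to separate sowings or cultures. The p-values therefore describe only how far these libraries scatter, a part of which may be technical.

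Bikinin inhibits GSK3 kinases and so switches on brassinosteroid signalling, 2,4-D is a synthetic auxin, and kinetin is a cytokinin. Together they are used to drive leaf mesophyll cells towards vascular fates by way of cells that resemble procambium, the stem cell tissue of veins. Auxin and cytokinin also release plant cells into the division cycle, in which E2F factors open S phase and MYB3R factors later drive the genes of G2 and mitosis. Flavonoids and anthocyanins are made from phenylalanine by chalcone synthase and the enzymes after it, under MYB factors that respond to light and sugar.

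The 20 libraries held 16616243 to 22298974 counts, of which 30.8 to 37.2% fell on mitochondrial loci. The mean mitochondrial share was 35.9% at 6 h and 31.8% at 10 h in stimulus leaves, and 37.0% and 36.4% in mock leaves (n = 2 each), and a part of this in the results was not tested beyond a fit without organelle, rRNA and tRNA loci, which called 1646 genes. Mesophyll markers were high, with 5 genes summing to 3766 to 6162 CPM, counts scaled to library size, in stimulus leaves and 6104 to 8453 CPM in mock leaves. The 3 root markers summed to 0.331 to 1.03 CPM and 0.543 to 2.90 CPM, with PLT1 at 0 throughout. In replicate 3 the mock columns of 6 h and 7 h were identical at every locus, so both were left out of its slopes, which leaves 5 stimulus and 3 mock libraries. The middle hour of each series, 8 h in stimulus leaves and 9 h in mock leaves, has no weight in a least-squares slope. The mock slope of replicate 3 is therefore set by its 8 h and 10 h libraries alone.

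Among the 1624 genes the effect of the stimulus, the log2 ratio of stimulus over mock, most often grew. A straight line through the 5 hourly effects gave each gene a value at 6 h and another at 10 h. By that line 352 genes were rises that widened, with a median effect of 0.22 at 6 h and 1.33 at 10 h, and 678 were falls that widened, with medians of -0.16 and -0.98. Fewer genes closed on the mock level. The line shrank in 165 rises, with medians of 0.76 and -0.01, and in 129 falls, with medians of -0.77 and 0.02. The rest turned, with opposite signs and at least 0.3 at both ends. There were 203 upward turns, with medians of -0.65 and 1.02, and 97 downward turns, with medians of 0.51 and -0.74. These classes describe the fitted line and were not tested. The effects measured at 6 h and at 10 h were both past the threshold with opposite signs in 36 upward and 22 downward turns. The same held for 2 rises and 7 falls that widened by the line, and for 2 rises and 2 falls that closed. Of all genes tested, 29.7% were called at 6 h and 39.2% at 10 h. A test that asks only whether the effect differed between the 5 times called 596 genes (2.83%), and 579 of them were among the 1624.

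The higher slopes came more often from movement in stimulus leaves and the lower ones from movement in mock leaves. Taken alone, the slope was called in stimulus leaves for 3495 genes (16.6%) and in mock leaves for 4803 (22.8%). Of the 684 genes with the higher slope, 325 had a called slope in stimulus leaves alone, 202 in mock leaves alone, 129 in both and 28 in neither. Of the 940 genes with the lower slope, 262 had one in stimulus leaves alone, 480 in mock leaves alone, 141 in both and 57 in neither. Upward turns moved in stimulus leaves alone in 139 genes and in mock leaves alone in 29. For rises that closed these counts were 26 and 109. The sizes were modest: the median difference was 0.27 log2 per hour among higher slopes and 0.20 among lower ones, and 100 higher and 37 lower slopes differed by at least 0.5 per hour. The count of higher slopes was 432 without mock 6 h replicate 1, 398 without stimulus 6 h replicate 2, 407 without mock 10 h replicate 1 and 441 without stimulus 10 h replicate 1. The count of lower slopes was 541 without mock 6 h replicate 1, 622 without mock 6 h replicate 2, 464 without stimulus 6 h replicate 2, 566 without mock 10 h replicate 1 and 408 without stimulus 10 h replicate 1.

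**Figure D1:**
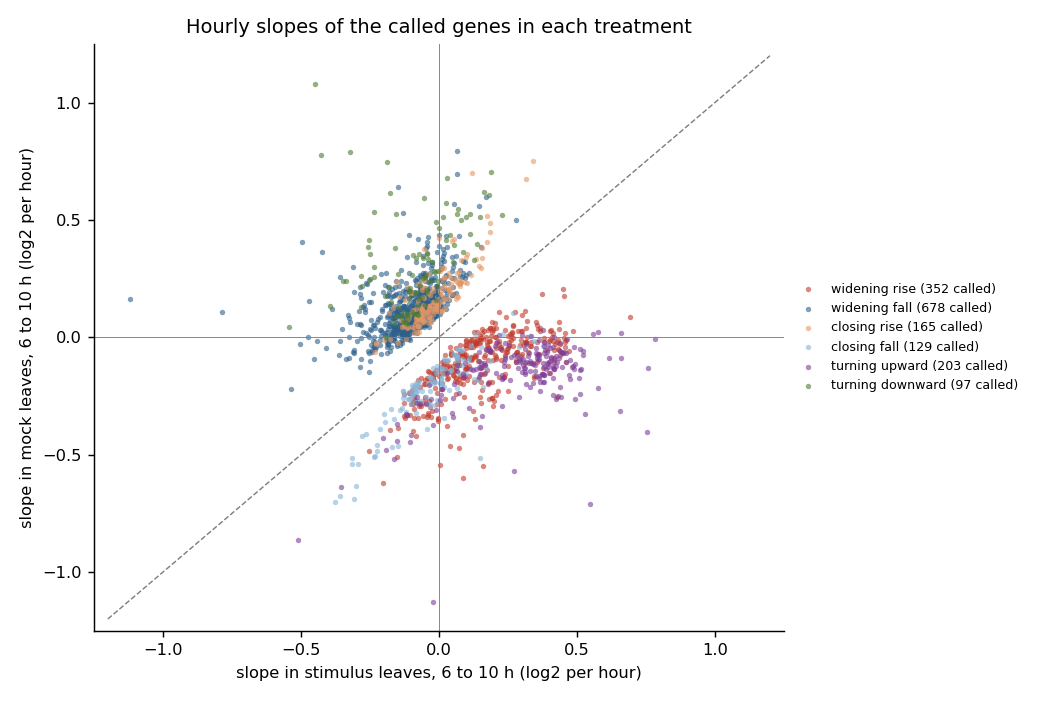
Hourly slope in stimulus leaves (x axis, log2 per hour) against the slope in mock leaves (y axis, log2 per hour) for the called genes, coloured by class, with 1619 of the 1624 inside the axes. Upward turns spread along the stimulus axis, and rises that closed lie mostly at mock slopes above 0.

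The change was not spread evenly over the hours. The largest step of the effect in the direction of the slope difference fell between 7 and 8 h in 771 of the 1624 genes (47.5%), against 31.3% of all genes tested. Between 8 and 9 h it fell in 285 (17.5%), against 21.8% of all genes tested. The slope contrast gives these middle steps equal weight, and more weight than the outer ones.

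**Figure D2:**
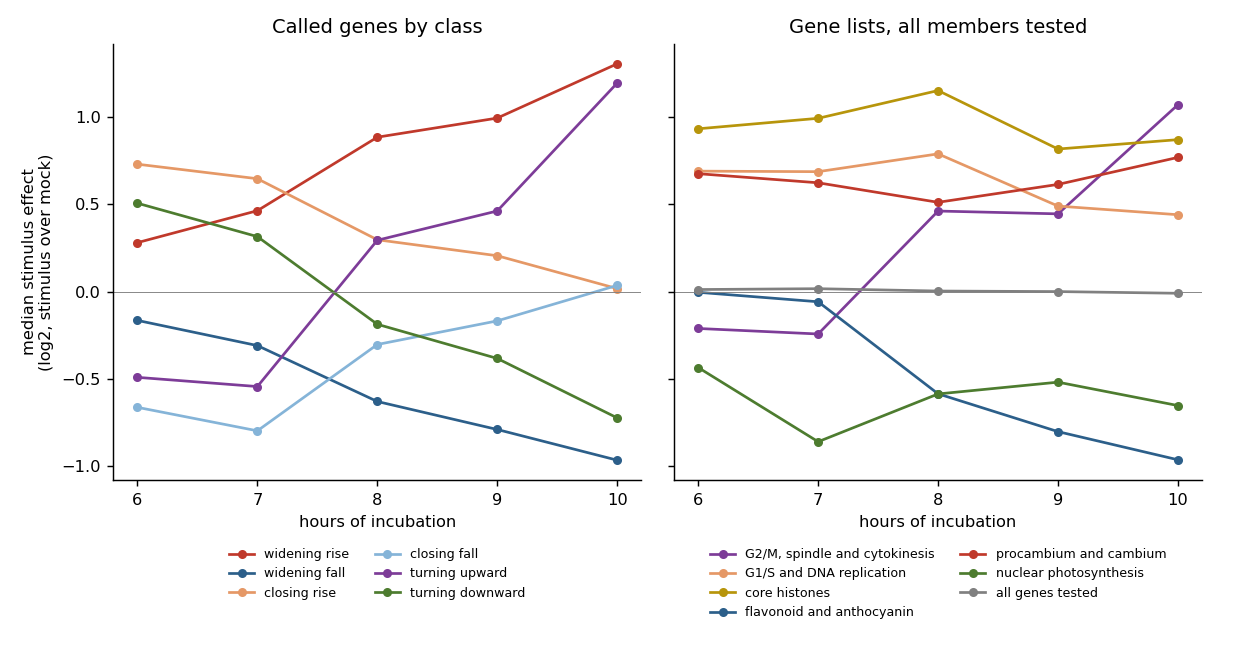
Median stimulus effect (y axis, log2 stimulus over mock) by hours of incubation (x axis), for the classes of called genes and for all tested members of several gene lists. The median of the G2/M list was -0.24 at 7 h and 0.46 at 8 h, and that of the flavonoid list -0.06 and -0.59.

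Genes of G2 and mitosis opened up in stimulus leaves. Of 73 G2/M, spindle and cytokinesis genes tested, 42 had the higher slope and 1 the lower one, so 58.9% were called against 7.71% of all genes. Their median effect was -0.21, -0.24, 0.46, 0.45 and 1.07 at 6, 7, 8, 9 and 10 h, beside a median of all genes between -0.01 and 0.02. In stimulus leaves alone 46 members had a rising slope and none a falling one, against 6.94% and 9.65% of all genes. In mock leaves 7 rose and 7 fell, against 11.3% and 11.5%. By class 26 turned, 15 widened and 2 closed. The count of 42 stayed between 35 and 43 with each library left out in turn, and was 16 without the 10 h libraries. In replicate 3, 41 of the 43 called members had the same sign. Without mock 8 h replicate 3, the replicate 3 difference turned to -0.31 for MAP65-3 and -0.35 for DRP5A, and was 0.04 for POK2. It kept its sign in CYCA1;1, TRM7, CSLD5, HIK and MYB3R4, at 0.19, 0.14, 0.29, 0.32 and 0.38.

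The kinesin POK2 (AT3G19050), which helps to place the division plane, was at 48.4 and 43, 61.9 and 66.3, 101 and 94.4, 122 and 105, and 181 and 158 CPM in stimulus leaves at 6, 7, 8, 9 and 10 h. In mock leaves it was at 50.4 and 38.7, 36.5 and 45, 30 and 45.1, 40.1 and 40.1, and 42 and 45.2 CPM at the same times. The treatments overlapped at 6 h and were apart at every later hour. The slopes differed by 0.46 ± 0.05 log2 per hour (SE, edgeR adjusted p = 5.17e-05).

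MAP65-3 (AT5G51600), which bundles microtubules in the phragmoplast that builds the new cell wall, turned. It was at 7.08 and 5.07, 6.2 and 7.23, 13.8 and 16, 14.2 and 16.9, and 25.3 and 23.5 CPM in stimulus leaves at 6, 7, 8, 9 and 10 h, against 11.6 and 9.83, 9.64 and 10.2, 4.75 and 8.61, 8.43 and 7.23, and 6.46 and 8.42 CPM in mock leaves. Both stimulus values lay below both mock values at 6 and 7 h and above them from 8 h. The effect was -0.80 at 6 h and 1.68 at 10 h (edgeR adjusted p = 0.0115 and 7.67e-06), and the slopes differed by 0.65 ± 0.07.

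MYB3R4 (AT5G11510), an activator of G2/M genes, had 12.5 and 12.7 CPM at 6 h in stimulus leaves, with 45.3 and 41.2 CPM by 10 h, against 12.9 and 12.9, and 13.9 and 14.9 CPM in mock leaves. Its slope difference was 0.44 ± 0.04 (edgeR adjusted p = 2.22e-05). The related factor MYB3R1 differed by 0.06 and was not called. CYCA1;1 (AT1G44110), a mitotic A-type cyclin, had 10.2 and 8.6 CPM at 6 h in stimulus leaves, with 33.7 and 31.6 CPM by 10 h, against 11.2 and 8.11, and 5.98 and 8.25 CPM in mock leaves, a slope difference of 0.57 ± 0.05. Some further members were picked for their role after their values were seen. The B-type cyclins CYCB1;1 to CYCB1;4 were called higher, at 0.51, 0.44, 0.42 and 0.46 per hour, and CYCB1;5, at 0.30, was not. The mitotic kinases CDKB2;1 and CDKB2;2 were called at 0.47 and 0.55 per hour. CDKB1;1 had an effect of 1.22 at 6 h already, and its slope difference of 0.12 was not called.

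Cell plate genes were among those that turned. HIK (AT1G18370), the kinesin HINKEL of cytokinesis, had 13 and 12.4 CPM at 6 h in stimulus leaves, with 39.5 and 38.2 CPM by 10 h, against 19 and 15.6, and 11.5 and 18.8 CPM in mock leaves, so the treatments did not overlap at either end. DRP5A (AT1G53140), a dynamin-related protein of cytokinesis, and TRM7 (AT3G58650), of a family that sets up the preprophase band, each differed by 0.60 per hour. CSLD5 (AT1G02730), a cellulose synthase-like protein of the cell plate, differed by 0.46 ± 0.06 (edgeR adjusted p = 0.000122).

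The CDK inhibitors of the same list were not called. KRP6 differed by -0.24 per hour, SMR5 by -0.35, SMR1 by -0.16 and KRP3 by -0.01. The single member with the lower slope was CYCA3;2 (AT1G47210), an A3-type cyclin linked to S phase, at -0.22 ± 0.04 (edgeR adjusted p = 0.0057). It had 22.6 and 24.1 CPM at 6 h in stimulus leaves, with 28.8 and 25.5 CPM by 10 h, against 12.8 and 12.4, and 26 and 24.2 CPM in mock leaves. The treatments were apart at 6 h and overlapped at 10 h.

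**Figure D3:**
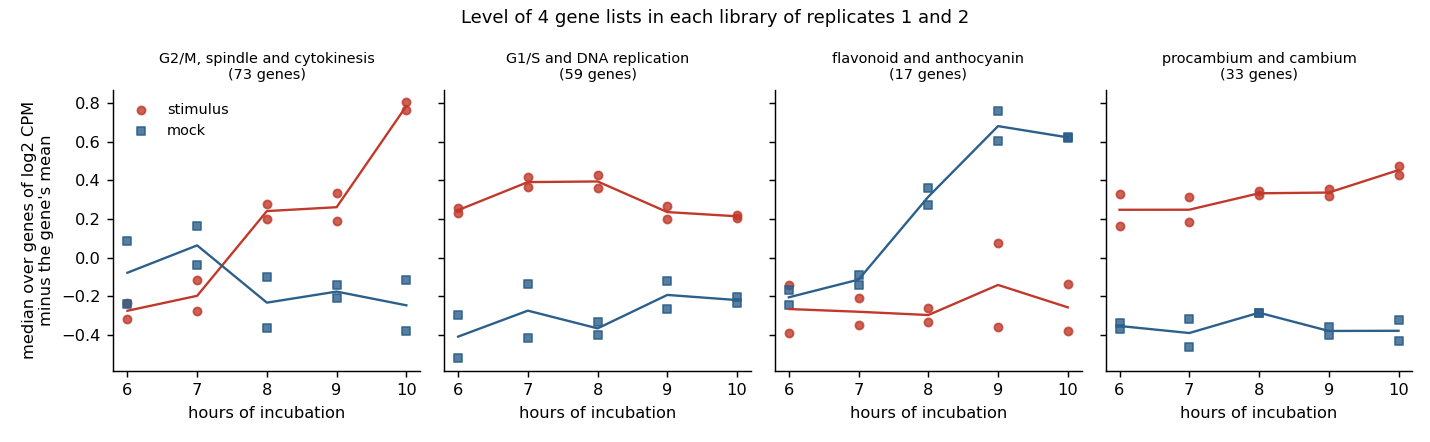
Level of 4 gene lists in each library of replicates 1 and 2 by hours of incubation (x axis), as the median over members of log2 CPM minus the gene's own mean (y axis), with lines through the mean of both libraries. At 10 h the G2/M list was at 0.80 and 0.77 in stimulus leaves and at -0.38 and -0.11 in mock leaves, and the flavonoid list at -0.38 and -0.14 in stimulus leaves and at 0.62 and 0.62 in mock leaves.

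Some genes of G1/S and DNA replication closed on the mock level. The median effect of 59 G1/S and DNA replication genes was 0.69, 0.69, 0.79, 0.49 and 0.44 at 6 to 10 h. By edgeR 12 had the lower slope in stimulus leaves and none the higher one, at an unadjusted p under 0.05 the counts were 22 and 3, and by DESeq2 12 and 2. Of all 21066 genes tested, 2590 were lower and 1904 higher at that unadjusted threshold. The 12 made up 20.3% of the list, against 7.71% of all genes either way and 4.46% with the lower slope. Of the 12, 11 were rises that closed: the MCM helicase subunits MCM2, MCM4, MCM5, MCM6 and PRL, the clamp PCNA2, the single-strand binding subunit RPA70B, the origin subunit ORC1B, the replication factor ETG1, the ribonucleotide reductase subunit TSO2 and the chromatin assembly subunit FAS1. In stimulus leaves 3 of the 59 rose over time and 4 fell, against 6.94% and 9.65% of all genes, and in mock leaves 17 rose and 3 fell, against 11.3% and 11.5%. The count of 12 was 4 without mock 6 h replicate 2, 6 without stimulus 6 h replicate 2, 7 without stimulus 9 h replicate 2, 5 without stimulus 10 h replicate 1 and 7 without stimulus 10 h replicate 2, and 0 without all 10 h libraries. In replicate 3, 8 of the 12 had the same sign.

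MCM5 (AT2G07690) had 43.1 and 44.3, 46.6 and 46.8, 46.6 and 50.2, 40.5 and 38.4, and 37.6 and 39.2 CPM in stimulus leaves at 6, 7, 8, 9 and 10 h. In mock leaves it had 25.1 and 20.9, 23.8 and 29, 23.5 and 23.9, 28.2 and 30.1, and 29.9 and 29.8 CPM. Stimulus values lay above mock values at every hour while the gap narrowed, by a slope of -0.07 in stimulus leaves and 0.09 in mock leaves. The difference was -0.16 ± 0.03 (edgeR adjusted p = 0.0038), and in replicate 3 it was 0.05.

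Core histone genes, which are expressed in S phase, showed no call in either direction. Of 38 tested by edgeR, 1 was lower and none higher at an unadjusted p under 0.05, and DESeq2 called none. They rose in both treatments, 24 in stimulus leaves and 26 in mock leaves, against 6.94% and 11.3% of all genes. Their median effect was 0.93, 0.99, 1.15, 0.82 and 0.87 over the 5 hours.

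Flavonoid and anthocyanin genes fell behind as they climbed in mock leaves. Of 17 tested, 12 had the lower slope in stimulus leaves, 70.6% against 7.71% of all genes, and none the higher one by edgeR. At an unadjusted p under 0.05 the counts were 15 and 0, and by DESeq2 12 and 0. Their median effect was -0.00, -0.06, -0.59, -0.80 and -0.97 at 6 to 10 h. In mock leaves 14 of the 17 rose, against 11.3% of all genes. In stimulus leaves none rose and 1 fell, against 6.94% and 9.65%. With each library left out the count ran from 10 to 13.

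F3H (AT3G51240), flavanone hydroxylase, had 187 and 233, 235 and 190, 182 and 226, 190 and 275, and 183 and 232 CPM in stimulus leaves at 6, 7, 8, 9 and 10 h. In mock leaves it had 151 and 167, 233 and 197, 344 and 335, 493 and 505, and 501 and 529 CPM. The mock values stood above the stimulus values without overlap from 8 h. The slope was 0.00 per hour in stimulus leaves and 0.46 in mock leaves, a difference of -0.46 ± 0.06 (edgeR adjusted p = 0.000115). In replicate 3 mock leaves F3H was at 209, 239 and 279 CPM at 8, 9 and 10 h, and at 286 CPM in the column deposited for both 6 and 7 h.

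Other enzymes of the pathway moved alike. FLS1 (AT5G08640), flavonol synthase, turned, with an effect of 0.50 at 6 h and -1.07 at 10 h (edgeR adjusted p = 0.0227 and 3.98e-05). TT19 (AT5G17220), a glutathione transferase needed for anthocyanin storage, differed by -0.26 ± 0.04, and chalcone synthase (CHS), picked for its role, by -0.36. MYB75 (AT1G56650), the anthocyanin activator PAP1, moved in stimulus leaves instead. It had 43.6 and 52.7 CPM at 6 h in stimulus leaves, with 19.1 and 21.1 CPM by 10 h, against 73.5 and 72.8, and 83.9 and 69.6 CPM in mock leaves, a slope difference of -0.39 ± 0.05 (edgeR adjusted p = 8.64e-05). All 12 called members had the same sign in replicate 3.

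ELIP1 (AT3G22840), an early light-induced protein of the thylakoid, was among the downward turns. It had 227 and 241 CPM at 6 h in stimulus leaves, with 215 and 255 CPM by 10 h, against 115 and 147, and 617 and 642 CPM in mock leaves, a slope difference of -0.65 ± 0.08 (edgeR adjusted p = 8.19e-05). ABCG22 (AT5G06530), an ABC transporter linked to stomatal control, had 103 and 127 CPM at 6 h in stimulus leaves, with 71.7 and 79.4 CPM by 10 h, against 73.3 and 108, and 265 and 272 CPM in mock leaves. Its slopes differed by -0.55 ± 0.06 (edgeR adjusted p = 4.48e-05). NAS4 (AT1G56430), a nicotianamine synthase of metal transport, closed: it had 41.3 and 43.6 CPM at 6 h in stimulus leaves, with 36.1 and 43.3 CPM by 10 h, against 17.9 and 23.6, and 46.7 and 52.1 CPM in mock leaves.

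**Figure D4:**
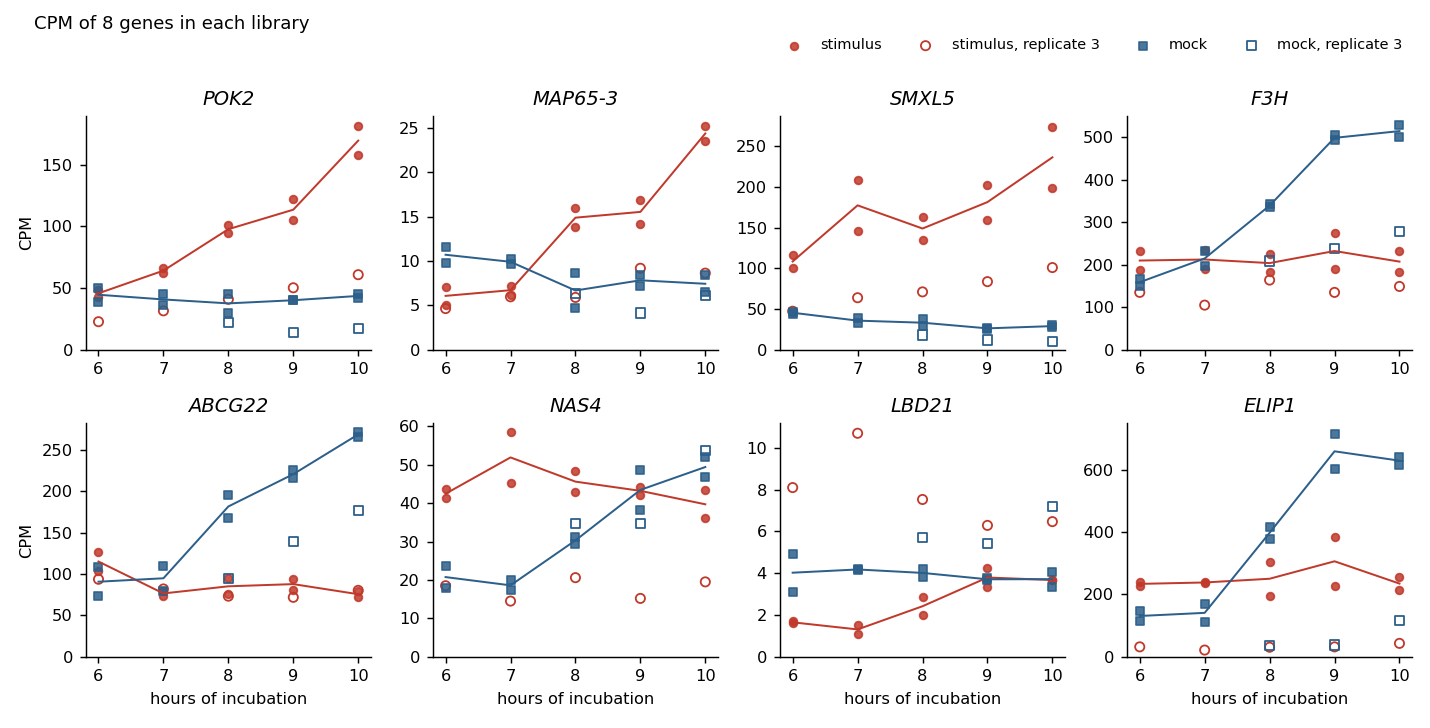
CPM of 8 genes (y axis, linear from 0) by hours of incubation (x axis) in each library, with filled symbols and mean lines for replicates 1 and 2 and open symbols for replicate 3, without its identical mock columns of 6 h and 7 h. POK2, MAP65-3 and SMXL5 climb in stimulus leaves, F3H, ABCG22, NAS4 and ELIP1 climb in mock leaves of replicates 1 and 2, and the stimulus slope of LBD21 in replicates 1 and 2 is not matched in replicate 3.

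Some genes of glucosinolates, the sulphur-containing defence compounds of this plant family, fell further behind in stimulus leaves. Of 24 tested by edgeR, 6 had the lower slope and none the higher one, 25% against 4.46% of all genes with the lower slope and 7.71% either way, at an unadjusted p under 0.05 the counts were 10 and 0, and by DESeq2 5 and 0. The median effect of the list was -1.04, -1.32, -1.87, -1.79 and -1.57 at 6 to 10 h. CYP83A1 (AT4G13770), of the aliphatic branch, had 19 and 23.5 CPM at 6 h in stimulus leaves, with 13 and 13.6 CPM by 10 h, against 40.4 and 38.8, and 58.7 and 42.9 CPM in mock leaves (difference -0.28 ± 0.05, edgeR adjusted p = 0.0021). MYB34 (AT5G60890), a regulator of the indolic branch, differed by -0.17 ± 0.04, and lost its call without mock 6 h replicate 2 or stimulus 10 h replicate 1. The count of 6 was 1 without either of those libraries, 2 without stimulus 6 h replicate 2 or mock 10 h replicate 1, and 3 without stimulus 7 h replicate 2, stimulus 9 h replicate 1 or mock 9 h replicate 2. All 6 had the same sign in replicate 3.

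Of 35 jasmonate and wound genes 2 were called, 5.71% against 7.71% of all genes. Both act early in jasmonate synthesis. LOX2 (AT3G45140), a lipoxygenase, had 808 and 1060, 626 and 723, and 413 and 500 CPM in stimulus leaves at 6, 8 and 10 h, against 3550 and 3080, 4140 and 3530, and 3440 and 3460 CPM in mock leaves (difference -0.30 ± 0.05, edgeR adjusted p = 0.000989). AOS (AT5G42650), allene oxide synthase, differed by -0.20 ± 0.05 and lost its call without mock 6 h replicate 2, stimulus 6 h replicate 2, mock 10 h replicate 1 or stimulus 10 h replicate 1.

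Some procambium and cambium genes, SMXL5 among them, added to a lead they already had. Of 33 tested, 8 had the higher slope in stimulus leaves and 2 the lower one, 30.3% against 7.71% of all genes. By class 7 of the called members widened, 1 closed and 2 turned. The median effect of the list was 0.68, 0.62, 0.51, 0.62 and 0.77. The 6 procambium and cambium markers summed to 245 to 361 CPM in stimulus leaves and 87.1 to 102 CPM in mock leaves, and more cells of a type and more RNA per cell cannot be told apart in whole leaves. The count of 8 was 5 without mock 6 h replicate 1. Both lower calls were lost without mock 6 h replicate 2, stimulus 6 h replicate 2, mock 10 h replicate 1 or stimulus 10 h replicate 1. In replicate 3, 9 of the 10 called members had the same sign. Without mock 8 h replicate 3, the replicate 3 difference was -0.11 for ATHB-15 and -0.01 for ANT, the opposite of their signs in replicates 1 and 2. SMXL5, PHB, TMO5 and HAM4 kept theirs, at 0.49, 0.003, -0.10 and -0.31.

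SMXL5 (AT5G57130), which promotes phloem formation, was at 117 and 100, 146 and 209, 163 and 135, 203 and 160, and 274 and 199 CPM in stimulus leaves at 6, 7, 8, 9 and 10 h. In mock leaves it was at 44.3 and 46.6, 38.5 and 33, 29.2 and 37.2, 27 and 25.5, and 27.5 and 30.5 CPM. The treatments never overlapped and moved apart from both sides (difference 0.39 ± 0.06, edgeR adjusted p = 0.000537). ANT (AT4G37750), an AP2 factor of organ growth, differed by 0.22 ± 0.05 and lost its call without mock 6 h replicate 1.

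The HD-ZIP III factors PHB (AT2G34710) and ATHB-15 (AT1G52150), which pattern leaves and veins, each differed by 0.24 ± 0.04. ATHB-15 had 37.2 and 33 CPM at 6 h in stimulus leaves, with 45.9 and 46.1 CPM by 10 h, against 44.9 and 39.2, and 26.5 and 31.9 CPM in mock leaves. TMO5 (AT3G25710), which triggers divisions of vascular precursors, had the lower slope, at -0.14 ± 0.04, as did the GRAS factor HAM4 (AT4G36710), at -0.26 ± 0.07. Of the 20 fits that left out 1 library, TMO5 was called in 9 and HAM4 in 13.

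Of 22 phloem genes 3 had the higher slope and 1 the lower one, 18% against 7.71% of all genes. The count of lower slopes was 2 without stimulus 6 h replicate 1 or stimulus 9 h replicate 2. The sieve element regulators BAM3 (AT4G20270) and OPS (AT3G09070) each differed by 0.20 ± 0.04, and CVP2 (AT1G05470) by 0.14 ± 0.04 with a call in 8 of 20 fits that left out a library. SUC2 (AT1G22710), the sucrose transporter of companion cells, closed. It had 108 and 117 CPM at 6 h in stimulus leaves, with 103 and 115 CPM by 10 h, against 32.1 and 31.1, and 54.7 and 47.2 CPM in mock leaves (difference -0.24 ± 0.04, edgeR adjusted p = 0.00234), and its sign in replicate 3 was opposite, at 0.19. None of 29 xylem and secondary wall genes was called by edgeR or DESeq2, and 5 were lower and none higher at an unadjusted p under 0.05. Among all 21066 genes tested, 2590 were lower and 1904 higher at that unadjusted threshold.

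Of 22 cytokinin genes 4 had the higher slope and 1 the lower one, 22.7% against 7.71% of all genes. In mock leaves 5 of the 22 fell over time, against 11.5% of all genes. The lower call was CKX7 (AT5G21482), a cytokinin oxidase, at -0.16 ± 0.04, and it was lost in 6 of 20 fits that left out a library. ARR4 (AT1G10470), a type-A response regulator, had 39.5 and 40.9, 57.6 and 52, 56.6 and 54.1, 56.3 and 53.5, and 57.8 and 53.5 CPM in stimulus leaves at 6, 7, 8, 9 and 10 h. In mock leaves it had 2.3 and 1.93, 2.63 and 2.33, 1.77 and 1.81, 1.38 and 1.27, and 0.598 and 0.74 CPM. The slope was 0.09 per hour in stimulus leaves and -0.42 in mock leaves (difference 0.50 ± 0.05, edgeR adjusted p = 3.08e-05). LOG3 (AT2G37210), which releases active cytokinin, had 81.9 and 86.1 CPM at 6 h in stimulus leaves, with 175 and 154 CPM by 10 h, against 5.64 and 4.3, and 1.63 and 3.3 CPM in mock leaves (difference 0.45 ± 0.07). The count of 4 was 2 without mock 6 h replicate 2 or mock 10 h replicate 1, and all 5 called members had the same sign in replicate 3. Without mock 8 h replicate 3, the replicate 3 difference was -0.32 for LOG3 and 0.057 for CKX7, the opposite of their signs in replicates 1 and 2. In the fit of all 3 replicates without the identical columns, the difference was -0.34 for ARR4 and -0.083 for ARR6 (AT5G62920).

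ARR6 (AT5G62920) and ROXY2 (AT5G14070), a glutaredoxin, had fitted slope differences of 1.43 ± 0.35 and 1.43 ± 0.31, which are no bounds because mock counts were near 0. ARR6 had 14 counts in the 10 mock libraries together, with 5 of them at 0, and ROXY2 had 15, with 6 at 0. In stimulus leaves ARR6 stayed between 5.77 and 8.73 CPM. The ARR6 call was lost without mock 6 h replicate 2, mock 10 h replicate 1 or mock 10 h replicate 2, and the ROXY2 call without mock 6 h replicate 2.

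Of 82 auxin-induced genes 3 had the higher slope and 6 the lower one, 11% against 7.71% of all genes, with a median slope difference of 0.01. GH3.2 (AT4G37390), an auxin-conjugating enzyme, had 564 and 549 CPM at 6 h in stimulus leaves, with 485 and 426 CPM by 10 h, against 1.75 and 1.56, and 0.706 and 0.341 CPM in mock leaves. Its ratio widened by 0.30 ± 0.07 per hour (edgeR adjusted p = 0.0185), a call lost without mock 6 h replicate 1 or mock 10 h replicate 2, and in replicate 3 the difference was -1.20. AXR3 (AT1G04250), the repressor IAA17, turned downward. It had 9.87 and 13.8 CPM at 6 h in stimulus leaves, with 5.03 and 6.48 CPM by 10 h, against 8.06 and 8.17, and 12.8 and 15.6 CPM in mock leaves (difference -0.49 ± 0.06, edgeR adjusted p = 0.000104), and in replicate 3 it differed by 0.04. The count of 6 was 1 without mock 6 h replicate 1 or stimulus 6 h replicate 2, and 3 without stimulus 10 h replicate 1, and 4 of the 9 called members had the same sign in replicate 3. ETT (AT2G33860), the response factor ARF3, had an effect of -0.53 at 6 h and 0.37 at 10 h (edgeR adjusted p = 0.00745 and 0.0446), as its slope was -0.21 in mock leaves and 0.02 in stimulus leaves.

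Wall-loosening genes split, with 5 of 38 expansins and XTH enzymes at the higher slope and 5 at the lower one, 26.3% against 7.71% of all genes. EXPA15 (AT2G03090) had 63.7 and 58.3 CPM at 6 h in stimulus leaves, with 81.4 and 75.5 CPM by 10 h, against 29.6 and 28.6, and 18.5 and 20.7 CPM in mock leaves (difference 0.21 ± 0.03, edgeR adjusted p = 0.000264). EXPA1 (AT1G69530) differed by 0.20 ± 0.04 and EXPA4 (AT2G39700) by 0.26 ± 0.05. EXPA5 (AT3G29030) turned downward, with an effect of 0.41 at 6 h and -0.31 at 10 h (edgeR adjusted p = 0.0139 and 0.0421). Its slope difference was -0.19 in replicates 1 and 2 and 0.21 in replicate 3, the opposite sign. In replicate 3, 6 of the 10 called members had the same sign, and the count of lower slopes was 1 without stimulus 10 h replicate 1, 2 without stimulus 6 h replicate 2, and 3 without mock 6 h replicate 1 or stimulus 10 h replicate 2. The count of higher slopes was 3 in each of 10 fits that left out 1 library.

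Of 28 circadian clock genes 6 had the higher slope and 2 the lower one, 28.6% against 7.71% of all genes. The morning factor RVE8 (AT3G09600) had 12.5 and 10.9 CPM at 6 h in stimulus leaves, with 12 and 17.4 CPM by 10 h, against 5.21 and 8.54, and 23.3 and 26.2 CPM in mock leaves (difference -0.41 ± 0.08, edgeR adjusted p = 0.00504). FKF1 (AT1G68050), a blue-light receptor of the evening, fell in both treatments, by 0.35 per hour in stimulus leaves and by 0.64 per hour in mock leaves, and lost its call without mock 6 h replicate 1, stimulus 6 h replicate 2, mock 10 h replicate 1 or stimulus 10 h replicate 1. None of the 6 higher calls was left without stimulus 6 h replicate 2 or stimulus 10 h replicate 1, 1 was left without mock 6 h replicate 1 or mock 10 h replicate 1, and 3 without stimulus 9 h replicate 1. In replicate 3, 5 of the 8 had the same sign.

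Photosynthesis genes fell in both treatments with few differences in slope. Of 54 nuclear genes, 52 fell in stimulus leaves and 40 in mock leaves, against 9.65% and 11.5% of all genes. In the slope difference 1 was higher and 4 were lower, 9.26% against 7.71% of all genes. The count of 4 was 0 without mock 6 h replicate 1, stimulus 6 h replicate 2, mock 10 h replicate 1 or stimulus 10 h replicate 1, and 8 without stimulus 7 h replicate 2. Among 18 chlorophyll genes 3 had the higher slope and 1 the lower one, 22.2% against 7.71%. The lower call was lost without mock 6 h replicate 1 or 2, stimulus 6 h replicate 2, mock 10 h replicate 2 or stimulus 10 h replicate 1. HEMA2 (AT1G09940), a glutamyl-tRNA reductase of the first steps, turned upward, with 4.13 and 4.06 CPM at 6 h in stimulus leaves, with 7.98 and 6.68 CPM by 10 h, against 6.74 and 6.82, and 4.4 and 3.98 CPM in mock leaves (difference 0.37 ± 0.06, edgeR adjusted p = 0.000857). PORB (AT4G27440), a protochlorophyllide reductase, fell in both, by 0.32 per hour in stimulus leaves and by 0.54 per hour in mock leaves. Its mock level in replicate 3 was 455, 488 and 431 CPM at 8, 9 and 10 h, and its sign there was opposite, at -0.10.

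Of 26 sugar starvation and trehalose phosphate genes 2 had the higher slope and 4 the lower one, 23.1% against 7.71% of all genes. The count of higher slopes was 1 without stimulus 6 h replicate 1 or 2, mock 10 h replicate 2 or stimulus 10 h replicate 1, and 4 without mock 7 h replicate 2. TPS11 (AT2G18700), a trehalose phosphate synthase homologue, had 43.4 and 39.1 CPM at 6 h in stimulus leaves, with 90.9 and 61.9 CPM by 10 h, against 6.8 and 7.9, and 3.91 and 4.21 CPM in mock leaves (difference 0.44 ± 0.05, edgeR adjusted p = 0.000122). The starvation factor bZIP11 (AT4G34590) had the lower slope, at -0.26 ± 0.04. Of 34 glutathione transferases 2 had the higher slope and 6 the lower one, 23.5% against 7.71%. Neither higher call was left without stimulus 6 h replicate 1, mock 10 h replicate 1 or 2, or stimulus 10 h replicate 1 or 2, and 1 was left in 7 other fits that left out a library. GSTF6 (AT1G02930), whose reads may be shared with a close copy, had an effect of 0.51 at 6 h and -0.46 at 10 h (edgeR adjusted p = 0.026 and 0.0316).

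Abscisic acid genes were called in 1 higher and 3 lower cases of 26, 15.4% against 7.71% of all genes. The count of lower slopes was 1 without mock 6 h replicate 1. The higher call was lost without that library, stimulus 6 h replicate 2, stimulus 7 h replicate 1, stimulus 9 h replicate 1, mock 10 h replicate 1 or 2, or stimulus 10 h replicate 1, and a second joined it without mock 9 h replicate 1. ABF3 (AT4G34000), a transcription factor of abscisic acid signalling, had 62.1 and 57.5 CPM at 6 h in stimulus leaves, with 38.6 and 39.9 CPM by 10 h, against 60.7 and 70.7, and 72 and 65.3 CPM in mock leaves (difference -0.20 ± 0.03, edgeR adjusted p = 0.000678). RAB18 (AT5G66400), a dehydrin that responds to abscisic acid, closed, with an effect of 1.42 at 6 h and -0.28 at 10 h, and lost its call without mock 6 h replicate 1 (edgeR adjusted p = 0.0502).

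Of 10 trichome genes 3 had the lower slope and none the higher one, 30% against 4.46% of all genes with the lower slope and 7.71% either way. At an unadjusted p under 0.05 the counts were 4 and 1, against 2590 and 1904 of all 21066 genes tested, and by DESeq2 2 and 0, against 830 and 683. ETC3 (AT4G01060), a small MYB protein that restrains trichomes, had 11.3 and 11.3 CPM at 6 h in stimulus leaves, with 4.15 and 4.88 CPM by 10 h, against 21.2 and 27.5, and 34 and 26.1 CPM in mock leaves (difference -0.39 ± 0.08, edgeR adjusted p = 0.00704). Its relative CPC (AT2G46410) turned downward, at -0.46 ± 0.09. GL3 (AT5G41315), a bHLH factor that promotes trichomes, was called in 5 of 20 fits that left out a library. Its slope difference was -0.30 in replicates 1 and 2 and 0.63 in replicate 3, the opposite sign. In replicate 3, 2 of the 3 called members had the same sign. Among 20 stomatal lineage genes the MYB factor FLP (AT1G14350) and the receptor kinase ERL1 (AT5G62230) had the lower slope, at -0.32 ± 0.08 and -0.18 ± 0.04, 10.0% of that list against 7.71%, and were called in 16 and 17 of those 20 fits. Neither was called without mock 6 h replicate 2, stimulus 6 h replicate 2 or stimulus 10 h replicate 1.

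Epidermis genes were called in 3 of 15 cases, 20.0% against 7.71% of all genes, 1 with the higher slope and 2 with the lower one. The higher one was PDF1 (AT2G42840), at 0.21 ± 0.06, which was called in 7 of 20 fits that left out a library and differed by -0.02 in replicate 3. CER6 (AT1G68530), which lengthens the fatty acids of wax, had 104 and 111 CPM at 6 h in stimulus leaves, with 93.6 and 92 CPM by 10 h, against 91.9 and 103, and 147 and 125 CPM in mock leaves (difference -0.18 ± 0.04, edgeR adjusted p = 0.00608). CER2 (AT4G24510), which acts with it, differed by -0.17 ± 0.03, and by 0.01 in replicate 3. Of 18 gibberellin genes 2 had the higher slope and 1 the lower one, 16.7% against 7.71% of all genes. GASA4 (AT5G15230) and GASA6 (AT1G74670) were higher by 0.26 and 0.37, and by 0.45 and 0.69 in replicate 3. Neither was called without stimulus 6 h replicate 2 or mock 10 h replicate 1. The DELLA repressor RGL2 (AT3G03450) turned downward, at -0.28 ± 0.04 (edgeR adjusted p = 0.00041), and differed by 0.17 in replicate 3.

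By edgeR no gene was called in either direction among 15 heat shock genes, 15 growth bHLH factors, 24 mRNA decay genes, 9 regeneration and root factors and 6 cytosolic ribosomal proteins. At an unadjusted p under 0.05 these lists held 1, 1, 3, 3 and 0 higher and 0, 0, 1, 0 and 0 lower genes, and DESeq2 called 1 higher in the regeneration list and none in the others. Among all 21066 genes tested, 1904 were higher and 2590 lower at that unadjusted threshold, and DESeq2 called 683 and 830.

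BGLU15 (AT2G44450), a beta-glucosidase, had 0.966 and 0.739 CPM at 6 h in stimulus leaves, with 6.12 and 7.26 CPM by 10 h, against 2.41 and 1.93, and 1.25 and 1.93 CPM in mock leaves (difference 0.89 ± 0.11, edgeR adjusted p = 0.000117). CSLA01 (AT4G16590), a cellulose synthase-like protein, had 5.37 and 5.86 CPM at 6 h in stimulus leaves, with 0.765 and 0.902 CPM by 10 h, against 32.4 and 26.5, and 36.9 and 44.7 CPM in mock leaves (difference -0.89 ± 0.13, edgeR adjusted p = 0.000429). In replicate 3 these genes differed by 0.08 and 0.19. SESA5 (AT5G54740), a seed storage albumin, had 1.02 and 1.53 CPM at 6 h in stimulus leaves, with 0.82 and 2.21 CPM by 10 h, against 4.22 and 4.89, and 33.5 and 31.8 CPM in mock leaves, where its slope was 0.80 per hour.

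Other leaders of their classes moved in mock leaves. IGMT2 (AT1G21120), a methyltransferase of indole glucosinolates, closed, with 6.87 and 9.87 CPM at 6 h in stimulus leaves and 11.1 and 8.94 CPM by 10 h, against 0.877 and 1.72, and 9.13 and 7.74 CPM in mock leaves (difference -0.58 ± 0.09, edgeR adjusted p = 0.000965). MIOX1 (AT1G14520), which opens the ring of myo-inositol, fell behind, with an effect of -0.11 at 6 h, which was not called. At 10 h it had 8.53 and 9.31 CPM in stimulus leaves, against 46.7 and 44.6 CPM in mock leaves. Its difference of -0.66 ± 0.09 (edgeR adjusted p = 0.00041) was -0.74 in replicate 3.

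Some falls closed as the transcript declined faster in mock leaves. Fes1B (AT3G53800) fell by 0.30 per hour in stimulus leaves and by 0.63 per hour in mock leaves. CAT3 (AT1G20620), a catalase, had 170 and 135 CPM at 6 h in stimulus leaves, with 84.1 and 45.1 CPM by 10 h, against 323 and 199, and 37.5 and 52.8 CPM in mock leaves, and lost its call without mock 6 h replicate 1, stimulus 6 h replicate 2, mock 10 h replicate 1 or stimulus 10 h replicate 1. In replicate 3 mock leaves CAT3 was at 229, 269 and 198 CPM at 8, 9 and 10 h, and Fes1B at 20.8, 21.5 and 13.4 CPM. Both replicate 3 series lay above the mock values of replicates 1 and 2 at those hours. The slope difference of CAT3 was 0.38 in replicates 1 and 2 and -0.20 in replicate 3, the opposite sign. That of Fes1B was 0.33 and 0.38.

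In replicate 3 the slope difference had the same sign in 1271 of the 1624 called genes (78.3%), against 59.7% of all genes tested and 58.2% of those not called. By class the share was 86.7% for upward turns, 82.4% for falls that widened, 80.4% for rises that widened, 68.0% for downward turns, 67.4% for falls that closed and 60.6% for rises that closed. The share depends on the mock libraries of replicate 3. From 8, 9 and 10 h of both treatments it was 72.5%, against 57.7% of all genes tested. It was 64.0% with the 6 h column left out alone, 61.1% with the 7 h column left out alone and 58.7% with both identical columns kept, and 66.4% without mock 8 h replicate 3, where all genes gave 54.6%. With replicate 3 added to the edgeR fit as a further library of each group, 4 genes had the higher slope and none the lower one, and without the identical columns the counts were 64 and 30. With the replicate number as a block in that last fit, added after the data were seen, they were 315 and 386.

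**Figure D5:**
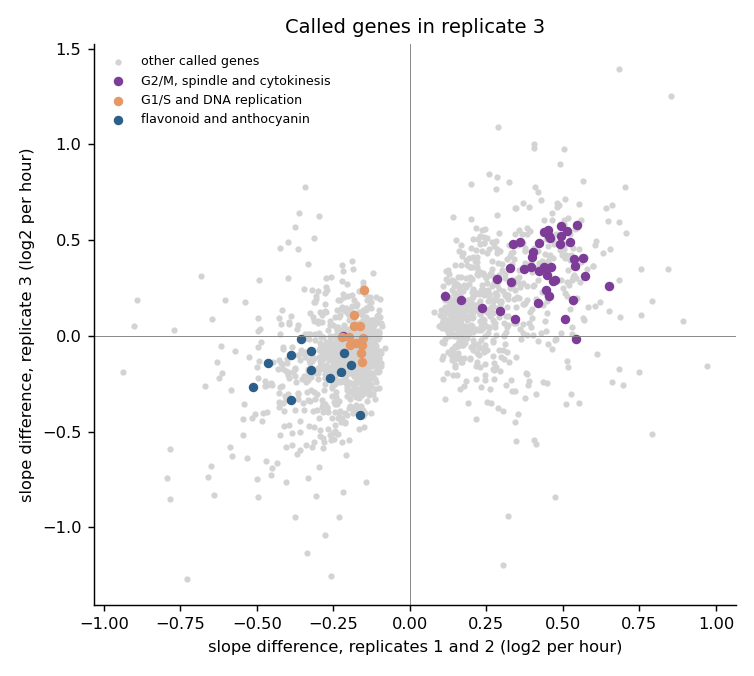
Slope difference in replicates 1 and 2 (x axis, log2 per hour) against that in replicate 3 without its identical mock columns (y axis, log2 per hour), for 1610 of the 1624 called genes. Points in the upper right and lower left have the same sign, 78.3% of the called genes.

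Tested by itself, replicate 3 called 146 of 20111 genes (0.726%), and 2836 at an unadjusted p under 0.05. Of these calls 43 were shared with replicates 1 and 2 with the same sign and 3 with the opposite sign, GH3.2, CGA1 and PPa5. ARR4, POK2, HIK, CSLD5, SMXL5 and HAT22 were shared among the higher slopes, and ABCG22, ASN2, SBP2, SAMDC, CAX3 and GSTF6 among the lower ones. ARR4 was at 50.6 CPM in mock 8 h replicate 3, and at 18.7 and 13 CPM in mock replicate 3 at 9 and 10 h. Without mock 8 h replicate 3 all 43 shared calls of the same sign kept it. The replicate 3 difference was then 0.51 for ARR4, against 0.97 with that library, and 0.04 for POK2, against 0.51. It was -0.31 for MAP65-3, -0.35 for DRP5A, -0.11 for ATHB-15 and -0.15 for CVP2, against 0.26, 0.16, 0.08 and 0.24. MCM5 went from 0.05 to -0.36, its sign in replicates 1 and 2.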

How the data were processed

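RNA-seq counts per locus of 30 libraries were deposited by the authors in 1 table as raw counts, not normalized. The submitters' processing notes name BWA and TAIR10, and the counting tool is not given in the sources used here. Replicates 1 and 2 of the 10 groups were fitted with edgeR 4.0.16 in R 4.3.3 (limma 3.58.1): loci were kept by filterByExpr, scaled by TMM, and tested by quasi-likelihood with 1 mean for each group. The contrast was the linear slope over 6 to 10 h in stimulus minus that in mock, with Benjamini-Hochberg adjustment over all 21066 loci tested and 10 residual degrees of freedom. CPM values use the TMM factors of all 30 columns, and log2 values a prior count of 2. Replicate 3 slopes were fitted by least squares without both identical mock columns, and again with edgeR as a straight line. DESeq2 1.42.0 was an alternative, beside other filters, time points, a replicate block and each library left out.

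The members and gene lists were chosen with earlier results of these data known. Genes were named by rule, all past the threshold, passing over loci that overlap a larger one on the same strand. The 4 largest in each class also had to be nuclear, with a mean log2 CPM of at least 1, a symbol of their own and the same sign in replicates 1 and 2. Up to 3 each way from each list were taken by p without these further filters. Up to 6 each way, by p, were called in replicate 3 too, with the same filters except the sign in replicates 1 and 2. Other genes in the text were picked after their values were seen. On simulated counts of 20695 genes, with slope differences drawn for this comparison, 59.6% of those of 0.25 and 88% of those of 0.5 per hour were recovered, with 9 false calls among 156.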

Additional observations from a re-analysis of the deposited data

Results flagged for a closer look

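The stimulus effect differed between times, by the edgeR interaction on 4 degrees of freedom, in 596 genes. Among the named genes, 10 had effects at 6 and 10 h that were both past the threshold and of opposite sign. Their slope differences, in log2 per hour of stimulus minus mock, were 0.89 for BGLU15, 0.65 for MAP65-3, 0.37 for HEMA2 and 0.23 for ETT in the upward direction. In the downward direction they were -0.65 for ELIP1, -0.49 for AXR3, -0.41 for RVE8, -0.39 for FLS1, -0.27 for GSTF6 and -0.19 for EXPA5.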

How the results depend on the processing

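The main counts were 684 higher and 940 lower slopes. Without a filter they were 1040 and 1484, from the 10 h effect minus the 6 h effect 412 and 534 (G1/S 6), without the 6 h libraries 402 and 235 (slopes 1518 in stimulus and 3049 in mock, G1/S 5, procambium 2), and without the 10 h libraries 175 and 203 (stimulus slope 1553, G2/M 16, G1/S 0, procambium 2). With all 30 columns they were 4 and 0 (slopes 214 and 152, the 4 lists 0), and without the identical columns 64 and 30 (slopes 252 and 285, G2/M 11, G1/S 1, flavonoid 0, procambium 1). Adding a replicate block there, chosen after seeing the data, gave 315 and 386 (slopes 1419 and 1254, G1/S 5, procambium 5). Replicate 1 alone gave 269 and 214 (slopes 1512 and 2736, G1/S 0, flavonoid 7, procambium 4) and replicate 2 alone 5 and 1 (slopes 343 and 468, G2/M 2, G1/S 0, flavonoid 0, procambium 0). With 1 library left out, higher slopes ran from 398 (without stimulus 6 h replicate 2) to 781, lower slopes from 408 (without stimulus 10 h replicate 1) to 1028, stimulus slopes from 1796 to 3719, mock slopes from 2742 to 4858, G2/M from 35 to 43, G1/S from 4 to 18, flavonoid from 10 to 13, procambium from 5 to 10, and the replicate 3 share from 66.4 to 78.6%. That share was 64.0, 61.1 and 58.7% with 1 or both identical columns kept, and 72.5% from 8 to 10 h. Signs reversed with 30 columns for PORB (-0.068) and GSTF2 (-0.041), and without the identical columns for ARR6 (-0.083), PORB (-0.14), ARR4 (-0.34), GASA6 (-0.020) and GSTF2 (-0.31). The cause was not tested. With each library left out, 67 of 118 named genes stayed past the threshold. Same-numbered samples did not deviate together (correlations 0.106, -0.151, 0.018, 0.044 and 0.111 at 6 to 10 h), and a replicate block called 1665 genes, 696 higher and 969 lower, of which 1572 were shared. With 59.6% of simulated differences of 0.25 per hour recovered, smaller ones can be missed at this depth.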

Other observations

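Of the 596 genes called by the interaction, 17 were not called by the slope difference, and these were looked at after their values were seen. ABCG19, an ABC transporter, had effects of -0.87, -1.73, -1.03, -1.29 and -0.68 at 6 to 10 h, lowest at 7 h (edgeR interaction adjusted p = 0.0211). DEL3, an atypical E2F factor, had effects of 0.54, 0.39, 2.08, 0.83 and 1.47, highest at 8 h (edgeR interaction adjusted p = 0.0291).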
